A study of Rattus norvegicus with 28 samples.

Results

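The 10 genes described here encode cytosolic aminoacyl-tRNA synthetases: Aars, Cars, Dars, Eprs, Gars, Iars, Lars, Mars, Nars and Sars. They were chosen by name and family, matched through the Ensembl identifier that the study pairs with each symbol, and make up 10 of the 32883 genes counted in each muscle. No expression value entered the rule, but symbols were at hand for only 1998 genes, which rank first by p in the study's own comparison of VDR-OE with control legs. A member therefore had to stand out in that comparison to be named, and its result there is not independent of the naming. Other comparisons that use these VDR-OE or control legs are not fully independent of it either.

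RNA-Seq counts were available for the left and right tibialis anterior muscles (TAM) of 14 rats, which makes 28 muscles in 4 groups of 7. In vivo electrotransfer (IVE) drives injected DNA into muscle fibres with electric pulses, and all 28 muscles, controls included, received 1 pulse of 900 V/cm for 100 μs, then 4 of 90 V/cm for 100 ms, and carprofen at 50 mg/kg. In rats 416 to 422 the right leg received a mouse VDR plasmid (VDR-OE, labelled IVE VDR knock-in) and the left leg the empty plasmid (VDR-OE control, labelled Sham VDR knock-in). In rats 423 to 429 the right leg received VDR shRNA (VDR-KD, labelled IVE VDR knock-out) and the left leg a scramble shRNA (VDR-KD control, labelled Sham VDR knock-out). The labels name the plasmid pCAGGS and the study's methods pCMV6, both named for promoters that are active in many cell types. The VDR-OE rats were male Wistar rats of 8 weeks with 1 week of acclimatisation, were given heavy water by mouth, and had their muscles taken after an overnight fast, 10 days after IVE. Sex, strain, age and time are not given for the VDR-KD rats in the sources used here. Nothing says whether the RNA of a muscle was prepared more than once, so p-values measure the spread between these muscles.

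Aminoacyl-tRNA synthetases attach each amino acid to its tRNA, the step that fixes the genetic code and feeds the ribosome. They fall into class I and class II by the fold of their catalytic domain, and several of them sit together with the scaffold proteins AIMP1, AIMP2 and AIMP3 (the product of Eef1e1) in a multisynthetase complex. Genes of many cytosolic synthetases are known targets of ATF4, a transcription factor made when eIF2 kinases sense a shortage of amino acids or stress in the endoplasmic reticulum. ATF4 acts with C/EBP proteins at C/EBP-ATF response elements, whose core reads TGATGNAA, and also drives genes for amino acid transport and synthesis. In muscle, charged tRNA supports the synthesis of the contractile proteins that set fibre size.

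That core was looked up in the RefSeq promoter windows of rat build GRCr8, which run from 250 bases before to 50 bases after each gene's start, because ATF4 is known to act through it. A window was found for 8 of the 10 members (none for Dars and Gars), and 5 of these 8 held TGATGNAA on either strand, against 3.98% of all 33469 windows. Matches are printed 5′ to 3′ on the strand that reads the core, which is in capitals.
Aars: tcagagcgctcTGATGAAAagtgacccgct
Cars: tttccagaatcTGATGCAAccgcggcgccg
Iars: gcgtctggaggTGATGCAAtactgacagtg
Mars: ggagcccacgcTGATGCAAccggaacgggc
Nars: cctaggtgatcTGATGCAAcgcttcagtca

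These windows of 30 bases lie on GRCr8 at chr19:55908480-55908509 (Aars, minus strand), chr1:208225334-208225363 (Cars, plus strand), chr17:15193658-15193687 (Iars, plus strand), chr7:65023752-65023781 (Mars, plus strand) and chr18:60275778-60275807 (Nars, minus strand). Counted from the first transcribed base as position 1, the leftmost base of the match lay 24 bases before the start in Iars, 17 before it in Mars and 14 before it in Nars, while that of Aars began at position 10 and that of Cars at position 18. The core read TGATGCAA in 4 of these 5 matches, and of these only that of Nars lay on the gene's own strand. The windows of Eprs, Lars and Sars held no match. Among 6 further cytosolic synthetases and complex factors with a symbol, Tars and Yars held a match. The cyclic AMP response element TGACGTCA, which cannot fall on the same 8 bases as the first motif, was found in 0 of the 8 windows and in 1.83% of all windows. A match is a description of the sequence only.

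Total counts ranged from 36684220 to 46312167 per muscle. The 10 most abundant genes took a median of 27.02% of the counts in VDR-OE control, 25.2% in VDR-OE, 24.84% in VDR-KD control and 18.37% in VDR-KD muscles. Levels are given as CPM, counts scaled to the size of the library and normalised by the trimmed mean of M-values method, which allow a gene to be compared between muscles but not with another gene. None of the 10 muscle fibre markers looked up has a symbol here, so the tissue label could not be checked against them. In whole muscle, fewer cells of a type and less RNA per cell cannot be told apart.

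Vdr, the targeted gene, did not follow every label. Vdr lay between 1.906 and 6.73 CPM in VDR-OE control muscles and between 201.1 and 5938 CPM in 6 VDR-OE muscles. The right leg of rat 419, labelled VDR-OE, held 5.448 CPM, no more than its own left leg at 5.746. The muscles labelled VDR-KD held 1.938 to 6.535 CPM against 1.387 to 8.117 CPM in their controls, and Vdr was lower in the right leg of 4 of 7 rats, so no direction below is credited to a loss of Vdr. Reads of the mouse construct that align to rat Vdr cannot be told apart from those of the rat gene.

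**Figure D1:**
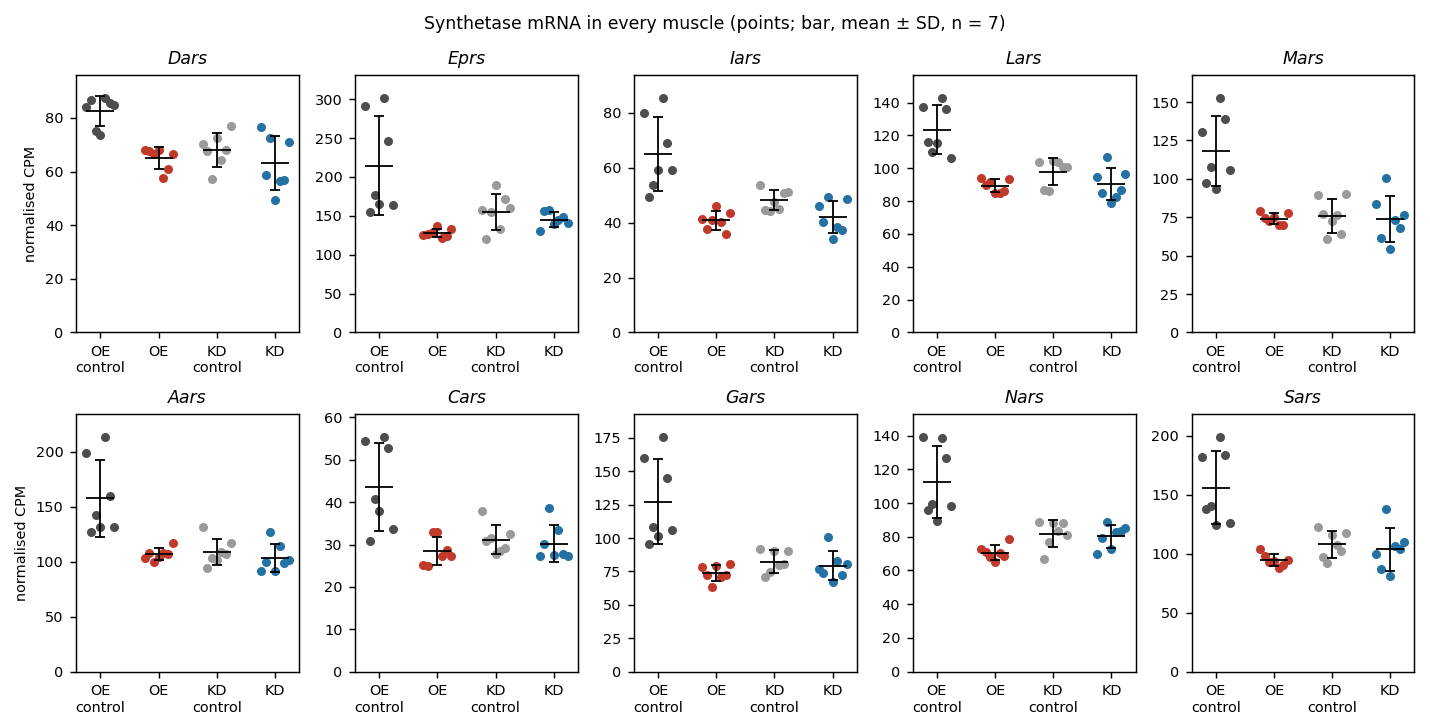
Normalised CPM (vertical axis, from 0) of each synthetase in every muscle of the 4 groups (OE, VDR-OE; KD, VDR-KD), with points for muscles and bars for mean ± SD (n = 7). VDR-OE control muscles had the highest mean for all 10 genes, and the VDR-OE muscles lay close together.

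All 10 synthetases were lower in VDR-OE than in VDR-OE control muscles. The question of this comparison is what VDR overexpression does to the muscle transcriptome. All 10 passed an adjusted p of 0.05 (edgeR quasi-likelihood test with the rat as a block, Benjamini-Hochberg adjustment over 14526 genes), with log2 fold changes from -0.75 (Gars) to -0.34 (Dars) and a median of -0.65, or 0.639-fold. Across all genes tested the median was -0.0034, and 3.06% were called lower. Because the members had to be named, the share among the other 1870 named genes is the closer background, and 21.1% of those were called lower. Each member was lower in the right leg of 7 of 7 rats, which held for 5.63% of 15112 genes. The groups did not overlap for 9 of the 10 (all but Cars), which held for 1.26%. Both shares are over all genes, and those among named genes were not computed. Neither count is independent of the naming.

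How many members passed depended on which rats were included. Without rat 416 all 10 passed, as did 4768 of all genes tested. Without rat 417 or rat 419, 5 members passed, and without rat 422, 7 passed. Without rat 418, 420 or 421 none passed, while only 1, 4 and 0 of all genes tested passed. All 10 remained lower, and every unadjusted p stayed at or under 0.00557, in each of these fits. Rat 419 showed the decrease without a rise in Vdr: its median log2 ratio over the members was -0.35, against -0.33 in rat 422, which had the highest Vdr.

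Of the 5 members that belong to the multisynthetase complex, Eprs varied most among the control muscles. Eprs, the fused glutamyl- and prolyl-tRNA synthetase, ranged from 155 to 301.6 CPM (median 177) in VDR-OE control and from 121.9 to 136.7 CPM (median 126.8) in VDR-OE muscles, which on the log2 scale is -0.68 ± 0.15 (SE, adjusted p = 0.0369, edgeR). Mars, the methionyl enzyme that also serves initiator tRNA, ranged from 93.44 to 152.7 CPM (median 108) in control and from 69.64 to 78.8 CPM (median 74.28) in VDR-OE muscles. The lowest control muscle thus lay above the highest VDR-OE muscle for both genes, and Mars changed by -0.65 ± 0.11 (adjusted p = 0.0212, edgeR). Mars overlaps Ddit3 in the RefSeq annotation and the strand setting of the counting is not given, so reads of the overlap cannot be assigned with certainty.

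Iars, which charges isoleucine, ranged from 49.33 to 85.43 CPM (median 59.26) in control and from 36.03 to 45.91 CPM (median 41.11) in VDR-OE muscles, a change of -0.65 ± 0.11 on the log2 scale (adjusted p = 0.0216, edgeR). Lars, the leucyl enzyme, which is also known as a leucine sensor upstream of mTORC1, ranged from 106.3 to 142.8 CPM (median 115.9) in control and from 84.83 to 93.99 CPM (median 89.64) in VDR-OE muscles. Its groups did not overlap either, and it changed by -0.45 ± 0.081 (adjusted p = 0.0237, edgeR). Dars, the aspartyl enzyme, stood apart with the smallest change and the tightest control muscles. It ranged from 73.77 to 87.43 CPM (median 84.89) in control and from 57.63 to 67.97 CPM (median 66.63) in VDR-OE muscles, a change of -0.34 ± 0.071 (adjusted p = 0.0331, edgeR).

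The other 5 members work outside the complex. Gars, the glycyl enzyme, mutated in an inherited neuropathy, had the largest change. Gars ranged from 95.45 to 175.4 CPM (median 108.5) in control and from 63.48 to 80.4 CPM (median 72.41) in VDR-OE muscles, or -0.75 ± 0.13 in log2 units (adjusted p = 0.0216, edgeR). Sars, the seryl enzyme, whose product also charges the tRNA for selenocysteine, ranged from 124.7 to 198.7 CPM (median 140.3) in control and from 87.68 to 103.7 CPM (median 93.55) in VDR-OE muscles. No VDR-OE muscle reached the lowest control muscle for either gene, and Sars changed by -0.70 ± 0.11 (adjusted p = 0.0189, edgeR).

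Nars, the asparaginyl enzyme, had the smallest adjusted p of the family. It ranged from 89.38 to 139 CPM (median 99.54) in control and from 64.78 to 78.77 CPM (median 70.15) in VDR-OE muscles, a change of -0.65 ± 0.097 (adjusted p = 0.0183, edgeR). Aars, the alanyl enzyme, ranged from 127.1 to 213.1 CPM (median 142.5) in control and from 99.42 to 116.6 CPM (median 107.1) in VDR-OE muscles, a change of -0.53 ± 0.11 (adjusted p = 0.0331, edgeR). Aars overlaps Ddx19b in the annotation, with the same limit as Mars. Cars, the cysteinyl enzyme, was the member whose groups overlapped, with 30.78 to 55.3 CPM (median 40.66) in control and 24.85 to 33.01 CPM (median 27.29) in VDR-OE muscles. The VDR-OE muscles of rats 418 and 419 lay above the lowest control muscle, and Cars changed by -0.58 ± 0.13 (adjusted p = 0.0364, edgeR).

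Members of the complex and free members were called alike, 5 of 5 each, with median log2 fold changes of -0.65 in both. By catalytic class, the 4 class I members ranged from -0.65 to -0.45 and the 5 class II members from -0.75 to -0.34, so the classes overlapped, while Eprs, which joins both classes, stood at -0.68.

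**Figure D2:**
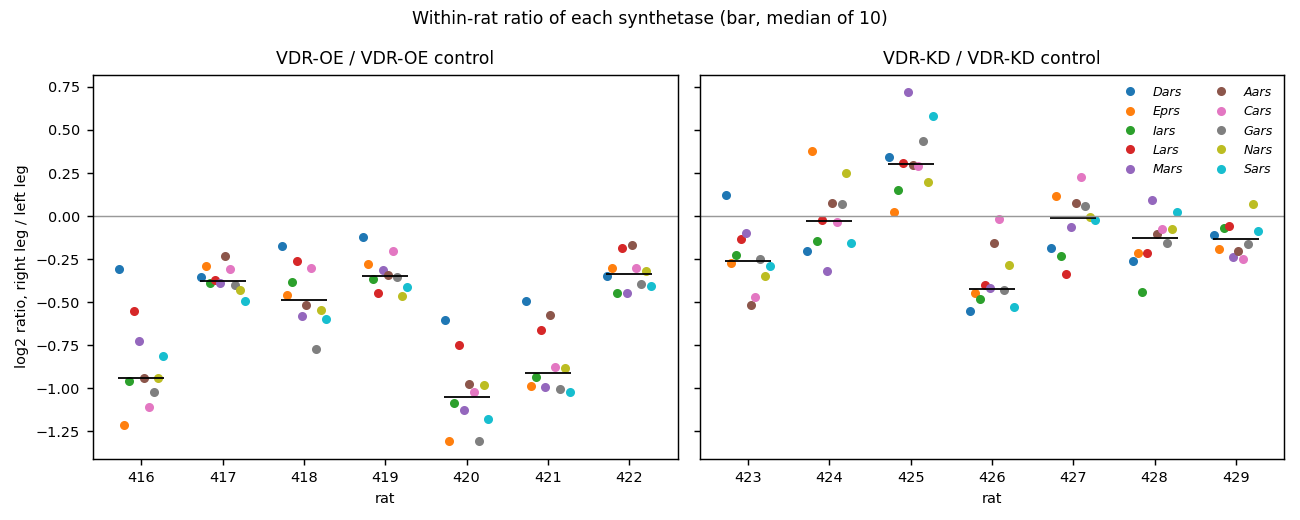
Log2 ratio of the right to the left leg (vertical axis) for each synthetase (colours) in each rat (horizontal axis) of the VDR-OE and the VDR-KD arm, with bars for the median of the 10. All 70 ratios lie below 0 in the VDR-OE arm, with medians from -1.05 (rat 420) to -0.33 (rat 422), and ratios of both signs occur in the VDR-KD arm.

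The control muscles themselves were of unequal height. The left legs of rats 416, 420 and 421 were the 3 highest of their group for 9 of the 10 members (all but Dars), and a gap wider than any other in the group set these 3 apart from the other 4 legs for 8 members. For Eprs the 3 legs held at least 246.4 CPM and the other 4 at most 177 CPM. These rats had the largest decreases, with median log2 ratios of -0.94 (rat 416), -1.05 (rat 420) and -0.91 (rat 421), against -0.33 to -0.49 in the other 4. Their right legs did not stand out, with median ranks among the 28 muscles of 18.5, 24.5 and 23, where rank 1 is the highest. The ratio contains the left leg, so high left legs beside such right legs give larger decreases by construction.

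The spread between muscles was narrower in VDR-OE than in VDR-OE control, whose spread includes the 3 high legs. The SD of log2 CPM had a median over the members of 0.289 in VDR-OE control and 0.083 in VDR-OE muscles, where all genes had 0.279 and 0.239. The ratio of these SDs was above 1 for 10 of 10 members, with a median of 3.03 (1.09 for Dars to 7.07 for Eprs), beside a median of 1.18 over 15112 genes. The median SD of the members was 0.15 in VDR-KD control and 0.19 in VDR-KD muscles, where all genes had 0.286 and 0.369. In the VDR-KD arm the ratio of control to VDR-KD had a median of 0.784, beside 0.79 over all genes. No test was made of these spreads.

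The 10 members did not pass the test between VDR-KD and VDR-KD control muscles. All 10 estimates were slightly lower in VDR-KD, from -0.20 (Iars) to -0.021 (Nars) on the log2 scale with a median of -0.066, and adjusted p ran from 0.803 to 0.951 (edgeR quasi-likelihood test). Of 14652 genes 0% were called (395 had an unadjusted p under 0.05), and the likelihood ratio test and DESeq2 also called 0 genes. On simulated counts of this arm, whose spread took in any real difference between legs, the quasi-likelihood test recovered only 2% of log2 changes of 0.5 and 37% of changes of 1. Iars had an interval of -0.42 to 0.016, and the interval of Gars, from -0.31 to 0.20, leaves out a decrease as large as the one in VDR-OE. That of Dars, from -0.36 to 0.14, includes its change of -0.34 in VDR-OE.

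Single rats of this arm moved in opposite directions. In rat 425 all 10 members were higher in the VDR-KD leg (median log2 ratio 0.30), and in rat 426 all 10 were lower (median -0.42). Gars ranged from 70.7 to 91.76 CPM (median 80.47) in VDR-KD control and from 66.78 to 100.8 CPM (median 77.16) in VDR-KD muscles. Eprs ranged from 120 to 189.8 CPM (median 157.7) and from 130.8 to 157.8 CPM (median 144) in the same order. Both groups overlapped over most of their range, as they did for Mars, with 60.86 to 90.36 CPM (median 76.55) in control and 54.53 to 100.3 CPM (median 73.24) in VDR-KD muscles.

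The remaining members of this arm were alike. Dars had medians of 68.05 CPM in control (57.19 to 76.82) and 58.88 CPM in VDR-KD muscles (49.35 to 76.59). Iars had medians of 47.65 CPM (44.41 to 53.89) and 40.24 CPM (34.09 to 49.23), with the right leg lower in 6 of 7 rats. The same count held for Lars, with medians of 100.6 CPM (86.37 to 104.2) and 86.57 CPM (78.85 to 106.9), and neither passed the test.

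Among the free enzymes, Aars had medians of 106.8 CPM in control (94.37 to 131.3) and 99.36 CPM in VDR-KD muscles (91.32 to 127.1). Cars had medians of 30.77 CPM (27.77 to 37.83) and 27.65 CPM (27.32 to 38.5). Nars had medians of 83.13 CPM (66.58 to 89.04) and 82.92 CPM (69.94 to 88.57). Sars had medians of 107.8 CPM (92.12 to 122.5) and 103.9 CPM (80.74 to 138), and none of these groups were separate.

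**Figure D3:**
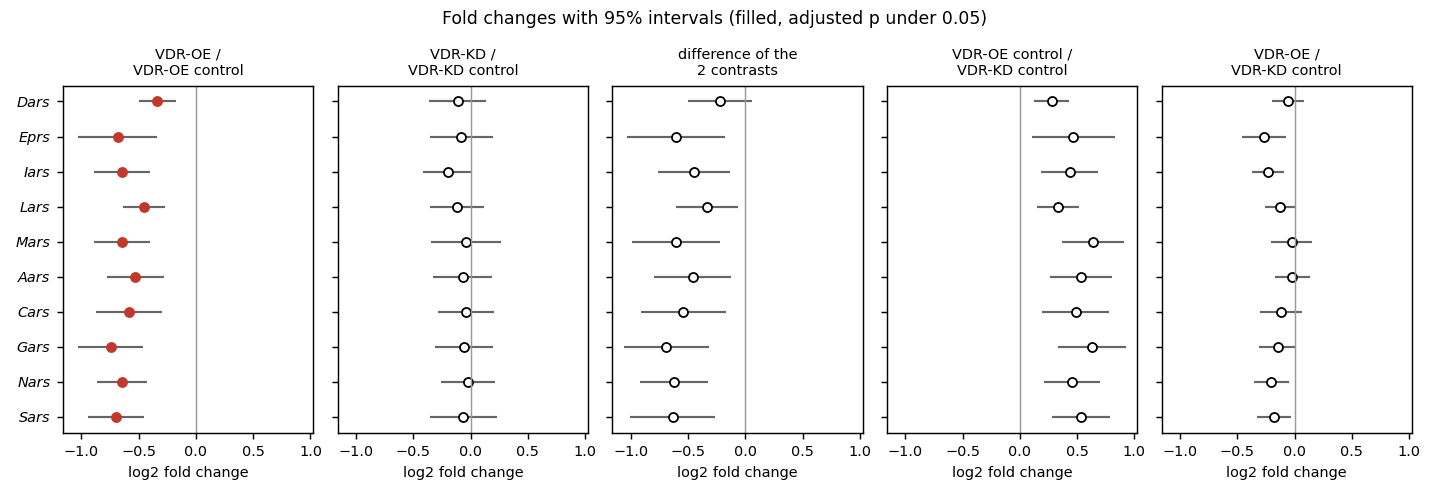
Log2 fold change (horizontal axis) of each synthetase in 5 comparisons, with 95% intervals worked back from edgeR's quasi-likelihood F statistic. Filled points passed an adjusted p of 0.05, which holds for 10 of 10 members in VDR-OE against its control and for 0 in the other comparisons.

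A model of all 28 muscles asked whether the members responded differently in the 2 arms. The within-rat effect of VDR-OE minus that of VDR-KD was below 0 for all 10, with a median of -0.57 on the log2 scale, from -0.69 (Gars) to -0.22 (Dars). None passed the adjusted threshold (adjusted p from 0.432 to 0.779, edgeR quasi-likelihood test), and 0% of 15112 genes did. On simulated counts, whose spread took in any real difference between legs, this test recovered 0% of log2 changes of 0.5 and 33% of changes of 1. Unadjusted p lay under 0.05 for 9 of 10 members, all but Dars, and 3.9% of all genes were lower with such a p. That share among named genes was not computed, but 36.2% of 1920 named genes outside the members lay below 0. The difference contains the VDR-OE comparison through which the members were named, so these counts are not independent of the naming. DESeq2 called Gars and Nars, among 44 genes, and the likelihood ratio test called none of the 10, among 18 genes.

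The left legs of the 2 arms, both electrotransferred and neither given a VDR construct, did not hold the same level. All 10 members were higher in VDR-OE control than in VDR-KD control muscles, by 0.28 (Dars) to 0.64 (Mars) on the log2 scale with a median of 0.48, or 1.39-fold, beside a median of 0.0094 over 14458 genes. Among 1863 named genes outside the members 37.1% were higher, with a median of -0.36. The VDR-OE control muscles also entered the comparison through which the members were named, so no count here is independent of the naming. Adjusted p ran from 0.0606 to 0.139 (edgeR quasi-likelihood test), so none passed, and 0.0277% of all genes were called higher. Unadjusted p lay under 0.05 for all 10, beside 10.6% of all genes higher with such a p. The likelihood ratio test called 7 members, all but Dars, Eprs and Lars, beside 1.2% of genes higher. DESeq2 called 9, 1 fit of all 28 muscles called 8, and leaving out rat 429 gave 8 and rat 423 gave 1 (Mars).

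Every VDR-OE control muscle lay above every VDR-KD control muscle for Gars, Lars, Mars, Nars and Sars, 5 of the 10, beside 0.463% of all genes. That share among named genes was not computed, and the count is not independent of the naming. The lowest Mars value of VDR-OE control, 93.44 CPM, lay above the highest of VDR-KD control, 90.36 CPM. These groups are different rats that received an empty plasmid and a scramble shRNA, so rat, vector and any difference in handling cannot be told apart.

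The VDR-OE muscles were close to the VDR-KD control muscles. Their log2 difference ran from -0.27 (Eprs) to -0.020 (Aars), with a median of -0.14 and adjusted p from 0.675 to 0.983 (edgeR quasi-likelihood test). None of the members passed, beside 0.00685% of 14609 genes. Unadjusted p lay under 0.05 for Eprs, Iars, Nars and Sars, and 3.29% of all genes were lower with such a p. Among 1876 named genes outside the members 44.6% lay below 0, and the VDR-OE muscles entered the naming. The interval of Gars ran from -0.31 to 0.012 and that of Mars from -0.20 to 0.15. The VDR-OE against VDR-OE control comparison shares its control muscles with the comparison of both controls, and this one shares muscles with both, so they are not separate evidence. Leg, rat and vector cannot be told apart in it.

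By group mean, the order was VDR-OE control, then VDR-KD control, for all 10 members. VDR-OE was the lowest group for 8 and VDR-KD for Aars and Dars. The first and second groups did not differ past the adjusted threshold, nor did VDR-KD control from VDR-KD, and VDR-KD against VDR-OE was not tested, with ranges that overlap for all 10.

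The co-variation of the 10 genes was examined within each group, over 7 muscles. In VDR-OE control the 3 high legs stand apart from the other 4 for 8 members, so that a pooled correlation would describe this gap. Neither set is large enough for a correlation of its own. For Aars and Dars the widest gap lay elsewhere. Correlations were computed in that group too, but their tests cannot tell a relation between genes from the gap, so they are not reported. In the other groups Pearson's r was computed for the 45 pairs, with exact two-sided permutation tests over 5040 pairings and Benjamini-Hochberg adjustment over the 135 pairs of these 3 groups. No pair passed an adjusted p of 0.05 by Pearson's r or by Spearman's rho, and the smallest adjusted p of r was 0.115 (exact permutation test). Unadjusted p of r lay under 0.05 for 17 pairs in VDR-KD, 10 in VDR-KD control and 4 in VDR-OE muscles. Adjusted over 180 pairs, with those of VDR-OE control included, 8 pairs of VDR-KD and 1 of VDR-KD control passed by r and none by rho. These calls thus depended on the group whose correlations are not reported.

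In VDR-KD muscles 44 of 45 pairs had r above 0, with a median of 0.66 beside -0.0052 over all pairs of 15112 genes. Dars and Iars had the highest r, 0.96 (Spearman's rho 0.86, exact permutation p = 0.00516 and 0.0238, adjusted p = 0.115 and 0.201), and r was 0.99 without the 2 muscles farthest from the median of Dars. For both genes the widest gap set the legs of rats 423, 425 and 429 above the other legs. Rat 429 stayed in without the 2 farthest muscles, so both r values in part describe that gap. Iars and Lars had an r of 0.94 (rho 0.89), which was 0.93 without the 2 farthest muscles. Aars and Cars had 0.94 (rho 0.71), which fell to 0.34 without those of rats 425 and 427. Without the 2 farthest muscles the median of the 45 pairs was 0.35, and without rat 425 alone it was 0.46.

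In VDR-KD control muscles 42 of 45 pairs had r above 0, with a median of 0.61, beside -0.00085 over all gene pairs. Gars and Sars had the highest r, 0.94 (rho 0.93, exact permutation p = 0.00377 and 0.00675, adjusted p = 0.115 and 0.201) and 0.95 without the 2 farthest muscles. For both genes the widest gap set the legs of rats 423, 426 and 429 above the other legs. Rats 426 and 429 stayed in without the 2 farthest muscles, so both r values in part describe that gap. In VDR-OE muscles 34 of 45 pairs had r above 0 with a median of 0.32, beside -0.0014. Mars and Sars were highest there at 0.83 (rho 0.86, exact permutation p = 0.0159 and 0.0238, adjusted p = 0.139 and 0.201), and Cars and Nars lowest at -0.63. Cars was the member least tied to the others in that group, with a median r of -0.32 with the other 9. Without the 2 farthest muscles the median over the pairs was -0.033 in VDR-OE and 0.32 in VDR-KD control. The pairs share their muscles and library factors, and the difference between groups was not tested.

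**Figure D4:**
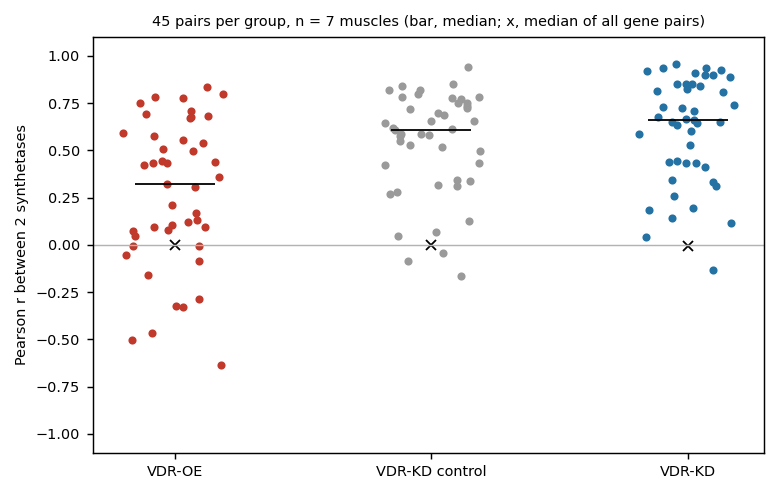
Pearson's r (vertical axis) between log2 CPM of 2 synthetases over 7 muscles, for the 45 pairs (points) in 3 groups, with bars for the median and crosses for the median over all gene pairs. The medians are 0.32 in VDR-OE, 0.61 in VDR-KD control and 0.66 in VDR-KD muscles, and the crosses lie near 0.

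The genes most like the synthetases were sought among 1920 named genes, by Pearson's r between deviations from the group means over the 28 muscles and the members' mean deviation. Phf10, a subunit of the PBAF chromatin remodelling complex, was first at 0.93 and also first among all 15102 other genes. Gpatch4 (0.90), Gtpbp2 (0.89), Mettl1 (0.89), Yars (0.88) and Hspa4 (0.87) followed, then Cyp4b1 (0.87), Thumpd3 (0.86), Nop2 (0.86) and Rnf185 (0.85). METTL1 is the methyltransferase for N7-methylguanosine in tRNA, GTPBP2 takes part in rescue of stalled ribosomes, and NOP2 methylates ribosomal RNA. The VDR-OE control muscles, with their 3 high legs, are among the 28, so this ranking in part describes that gap. Within the VDR-OE muscles alone r for these 10 genes ran from 0.013 (Gpatch4) to 0.81 (Mettl1). It was 0.61 there for Phf10 and 0.71 for Nop2, but 0.29 for Gtpbp2 and 0.15 for Rnf185. The median over all genes was 0.024.

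Other cytosolic synthetases and complex factors moved the same way in the VDR-OE arm. Of 13 listed, 6 have a symbol, and 5 of these 6 were called lower, where 21.1% of the 1870 named genes outside the members were. Yars, the tyrosyl enzyme, changed by -0.61 ± 0.13 (adjusted p = 0.0365, edgeR), and Farsb, a subunit of the phenylalanyl enzyme, by -0.51 ± 0.10 (adjusted p = 0.0291, edgeR). Vars (-0.42), Aimp1 (-0.35) and Tars (-0.33) also passed, and Eef1e1 was at -0.31 with an adjusted p of 0.0556 (edgeR). The single mitochondrial synthetase with a symbol, Rars2, was at -0.36 (adjusted p = 0.0588, edgeR). None of these 7 passed in the VDR-KD arm or between the control groups. They too are named genes of the study's own list.

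Known ATF4 targets and genes of the amino acid response were lower alongside. Of 40 listed, 26 have a symbol, all 26 had an estimate below 0 in VDR-OE, and 22 were called lower, with a median log2 fold change of -1.01. They too are named only through the study's p-ranked list of this comparison, and among the other 1870 named genes 36.7% lay below 0 and 21.1% were called lower. Fgf21, a hormone that stressed muscle secretes, ranged from 4.57 to 37.31 CPM (median 13.73) in VDR-OE control and from 0.2406 to 0.5961 CPM (median 0.4738) in VDR-OE muscles, a change of -4.97 ± 0.40 (adjusted p = 0.0065, edgeR). The groups are far apart, and the VDR-OE muscles lie near the filter of 0.239 CPM. Atf5, a transcription factor related to ATF4, changed by -1.32 ± 0.14 (adjusted p = 0.0112, edgeR). Sesn2, which dampens mTORC1, changed by -1.92 and Cebpg, a partner of ATF4, by -0.69.

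The same 26 genes were all higher in VDR-OE control than in VDR-KD control muscles, with a median of 0.74, where 37.1% of 1863 named genes were higher, and only Herpud1, of protein degradation at the endoplasmic reticulum, was called (adjusted p = 0.0393, edgeR). In the VDR-KD arm none was called and the median was 0.047. Eif2ak3, the eIF2 kinase PERK and the only kinase of that list with a symbol, was higher in VDR-OE by 0.50 ± 0.11 (adjusted p = 0.0365, edgeR).

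Markers of other cell types lay in the opposite direction, which was also the common one among named genes: of 1870 named genes 63.3% lay above 0, 28.7% were called higher, and the median was 0.48. All 6 fibroblast markers with a symbol (of 8 listed) were called higher in VDR-OE, with a median of 0.89, and their summed level ranged from 1525 to 5273 CPM in VDR-OE control, 2216 to 8695 in VDR-OE, 2885 to 8870 in VDR-KD control and 2617 to 9012 in VDR-KD muscles. Of 5 leukocyte markers with a symbol (of 13), Csf1r and Cd163 were called higher and all 5 had estimates above 0, with a median of 1.14. Their sum ranged from 416 to 1476 CPM in VDR-OE control, 965.9 to 2449 in VDR-OE, 915 to 3208 in VDR-KD control and 633.7 to 4060 in VDR-KD muscles. None of the markers was at 0 in any group. Between the control groups both lists had estimates below 0 in VDR-OE control, 6 of 6 and 5 of 5, and none was called, where 62.9% of 1863 named genes lay below 0 with a median of -0.36. In the VDR-KD arm the median was 0.59 for the leukocyte and 0.084 for the fibroblast markers, and none of either list was called. The part of these cell types in the synthetase result was not tested.

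**Figure D5:**
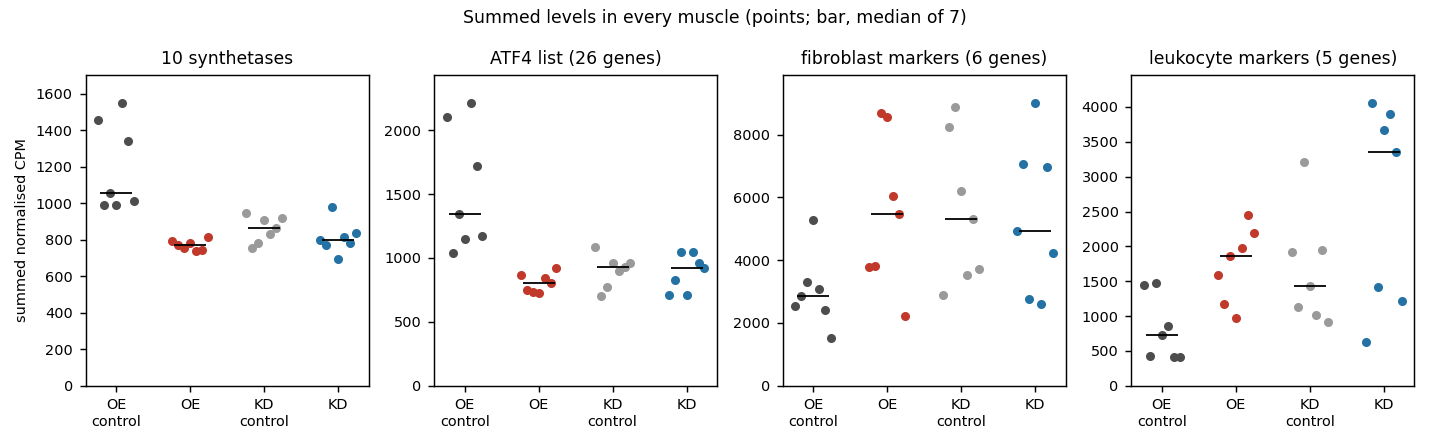
Summed normalised CPM (vertical axes, from 0) of the 10 synthetases, the 26 ATF4 list genes, 6 fibroblast markers and 5 leukocyte markers in every muscle of the 4 groups, with bars for the median. The synthetases and the ATF4 list are highest in VDR-OE control, where the markers have their lowest medians.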

How the data were processed

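RNA was extracted from 28 TAMs of 14 rats, and libraries of the TruSeq kit were sequenced as 75 bp paired-end reads. The authors trimmed adaptors with trimmomatic, aligned and counted reads with Rsubread against rat genome 6.0 (Ensembl 89), and deposited the resulting counts, 1 table a muscle, with no scaling. The submitters' processing notes list bcl2fastq 2.17.1.14, FastQC 0.11.5 and edgeR 3.18.1.

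A gene entered a fit if its CPM was above what 10 reads give in the median library (0.239 CPM in the VDR-OE arm, 0.251 in the VDR-KD arm) in 7 or more muscles. All 10 members passed. The quasi-likelihood test of edgeR 4.0.16 was run in R 4.3.3 after scaling by the trimmed mean of M-values. Comparisons within rats carried the rat as a block, as the study's methods do, and the control and cross comparisons, between different rats, did not. P-values were adjusted over all genes tested by the Benjamini-Hochberg method. The study's glmFit points to the likelihood ratio test, which is given as an alternative. Counts of 14374 genes were simulated for VDR-OE against its control, with 100 changed by 0.5 and 100 by 1 on the log2 scale. The quasi-likelihood test recovered 5% and 73%, with 7.14% of its calls false, and the likelihood ratio test 31% and 92%, with 26.8% false. With the same changes the quasi-likelihood test recovered 2% and 37% in the VDR-KD arm and 0% and 33% in the difference between arms. Between the control groups it recovered 23% and 80%. Dispersions for these simulations were fitted with no term for leg or group, so real differences between them counted as spread. Few genes were changed, which makes the adjusted threshold stricter, so the rates need not equal those in the real data.

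The pairing comes from the animal label. Deviations from group means correlated between legs of the same rat with a mean r of 0.243 in the VDR-OE and -0.105 in the VDR-KD arm. No files were identical, and all muscles were counted as separate samples. Alternatives were DESeq2 1.42.0, the likelihood ratio test, RLE factors, no or a stricter filter, no block, 1 fit of all 28 muscles and leaving out each rat.

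The members and lists were chosen with earlier results of these data known. Named besides the members were Vdr, the other cytosolic synthetases and complex factors, from each further list up to 4 genes with the smallest p in VDR-OE against its control, and the 10 named genes most like the members. Herpud1 was named after its value was seen. Names come from the 1998 genes that the study pairs with an Ensembl identifier, and the fold changes and p-values beside them were not used. Of 10 muscle fibre, 6 regenerating fibre, 5 endothelial, 4 nerve and 3 blood markers and 6 elongation factors listed, none has a symbol. Sequences come from RefSeq promoter windows of GRCr8, matched by gene ID. 1 further match is not reported here. Coordinates of the counted genes were not printed, since no annotation of their build was used here.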

Additional observations from a re-analysis of the deposited data

How the results depend on the processing

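The members' log2 fold change in VDR-OE against its control stayed below 0 in all 140 values from the alternatives (-0.81 to -0.28), and 96 of these kept their call. The 10 calls held under the likelihood ratio test, DESeq2, RLE factors, both filters and the fit with no replicate block (10 called), 9 held in 1 fit of all 28 muscles, and 0 to 10 held when a rat was left out. Over all genes this comparison had 1037 calls, 2262 by the likelihood ratio test, 2767 by DESeq2, 229 in 1 fit of all 28 muscles, and 0 to 4768 when a rat was left out. Since 6 pairs remain then, fewer samples are part of that alternative, and the cause of the rest was not tested. For the control groups, where 0 members were called, 7 were by the likelihood ratio test, 9 by DESeq2, 8 in 1 fit of all 28 muscles and 0 to 8 when a rat was left out, with all 200 values above 0 (0.24 to 0.69). For the difference between the arms, DESeq2 called 2, and all 200 values stayed below 0. In the VDR-KD arm 0 members were called under any alternative, as in VDR-OE against VDR-KD control, and 7 of 140 and 3 of 200 values lay above 0. The fits with no replicate block called 0 members in the VDR-KD arm and 0 in the difference, so the pairing changed no call of a member. Median correlations moved by less than their SD over the pairs with RLE factors or a rat left out. Without the 2 muscles farthest from the median, chosen after seeing the data, they moved by more in VDR-KD control (0.32) and VDR-KD (0.35). The 8 pairs of VDR-KD and the 1 of VDR-KD control that passed with 4 groups in the adjustment became 0 and 0 over the 3 groups reported, an adjustment also chosen after seeing the data. The lowest count of a member in any VDR-OE arm muscle was 858 (Cars).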
